A study of Homo sapiens with 10 samples.

Results

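The cyclin D, CDK and inhibitor genes of the G1 to S step of the cell cycle were CCND1, CCND2, CCND3, CCNE1, CDK4, CDK6, CDKN1A, CDKN1B, CDKN2A and RB1, 10 of the 20098 protein-coding genes of chromosomes 1 to 22 and X. They were chosen by function. The rule uses no measured value, although earlier results of these data were known when the genes were chosen. Each gene was examined over its body plus 50 kb on each side (the gene window), 1.79 Mb in all. The genome build was GRCh37, called hg19 in the study. The study asked where the receptor tyrosine kinase HER2 lies on chromatin and whether these places are enhancers. HER2 was mapped by ChIP-exo, which trims immunoprecipitated DNA with an exonuclease, in SKBR3 and BT474 cells after 3 hours of vehicle (H2O) or of 100 ng/ml EGF, a ligand of the EGF receptor, with no serum deprivation and 1 peak list per condition. H3K4me1, the histone H3 lysine 4 monomethylation that marks enhancers, was mapped by ChIP-seq in 2 libraries of each line. The labels call the H3K4me1 cells asynchronous and name no EGF, whereas the text of the study describes EGF-treated cells, so that the treatment of these 4 libraries is unsettled. Both lines are established breast cancer lines with an amplified ERBB2 (HER2) locus, and no line without that amplification entered the groups used here.

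Cyclins of the D type (CCND1, CCND2 and CCND3) bind the kinases CDK4 and CDK6, and these complexes begin the phosphorylation of the retinoblastoma protein RB1. Cyclin E1 (CCNE1) with CDK2 completes it, which releases the E2F factors that switch on the genes of DNA synthesis. The inhibitors p21 (CDKN1A) and p27 (CDKN1B) bind cyclin and CDK complexes, and p16, 1 product of CDKN2A, holds CDK4 and CDK6 inactive. In breast epithelium, cyclin D1 and CDK4 carry growth signals of receptors such as HER2 and the oestrogen receptor into the cycle.

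The H3K4me1 islands held 15097245 to 18714089 reads per library in 70251 to 96293 islands, and the HER2 lists held 2520 to 29326 peaks. Start sites of luminal epithelial markers lay within 1 kb of an island at 5 of 7 genes in both SKBR3 libraries and at 6 and 7 of 7 in the BT474 libraries. Of the oestrogen receptor axis (ESR1, PGR and GREB1) 1 and 2 of 3 start sites had an island in SKBR3 and 3 of 3 in both BT474 libraries, and the adherens junction gene CDH1 had one in a single BT474 library. Of genes of other cell types, PTPRC and CD3E had no island at their start in any library, whereas COL1A1, the collagen gene of fibroblasts, had one in both BT474 libraries. ESR1 and PGR thus had an island within 1 kb of their start in libraries of both lines, with unequal cover. Of the 2 kb around the ESR1 start, 11.3% and 1.30% lay in islands in SKBR3 and 61.3% and 71.3% in BT474. For PGR the shares were 0% and 82.8% in SKBR3 and 100% and 87.2% in BT474. An island is a run of 200-bp steps that the caller SICER found enriched over input, and a region with no island is one that the caller did not list, not one without the mark.

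H3K4me1 differed between SKBR3 and BT474 in the windows of 7 of the 10 genes, in both directions. CDKN2A, CCNE1 and CDK6 were higher in SKBR3, by 9.43-, 7.63- and 2.27-fold. CDKN1A, CCND1, RB1 and CDK4 were higher in BT474, by 1.89-, 1.76-, 1.73- and 1.35-fold. CCND2, CCND3 and CDKN1B did not pass the test. The test was edgeR's quasi-likelihood fit of island reads over 18844 windows, called at a Benjamini-Hochberg adjusted p below 0.05, and all 10 genes passed its filter on low counts. Differences between the lines were common: 34.2% of all windows were called higher in SKBR3 and 38.2% higher in BT474, beside 3 and 4 of the 10. With a log2 ratio of at least 1 as well, 18.7% of all windows were called higher in SKBR3 and 23.8% higher in BT474, beside 3 and 0 of the 10. The median absolute log2 ratio was 0.805 over the 10 genes and 0.91 over all windows tested. The median signed log2 ratio of SKBR3 to BT474 was -0.31 over the 10 and -0.11 over all windows, and without TMM scaling, edgeR's correction for library composition, these medians were -0.45 and -0.26. Nothing in the labels says that the 2 libraries of a line came from separate cultures, so the p-values measure the spread between these libraries, which may be technical.

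Scaled reads below are reads inside islands of the window per 1000000 island reads of the library, after TMM scaling. They rise with the length called as island, so cover and the density within islands stand beside them. In the plot of reads and cover by library, the CDKN2A and CCNE1 windows have the widest gaps on the log axis of reads, and CDK6 has the widest gap in cover (23.8 percentage points).

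**Figure D1:**
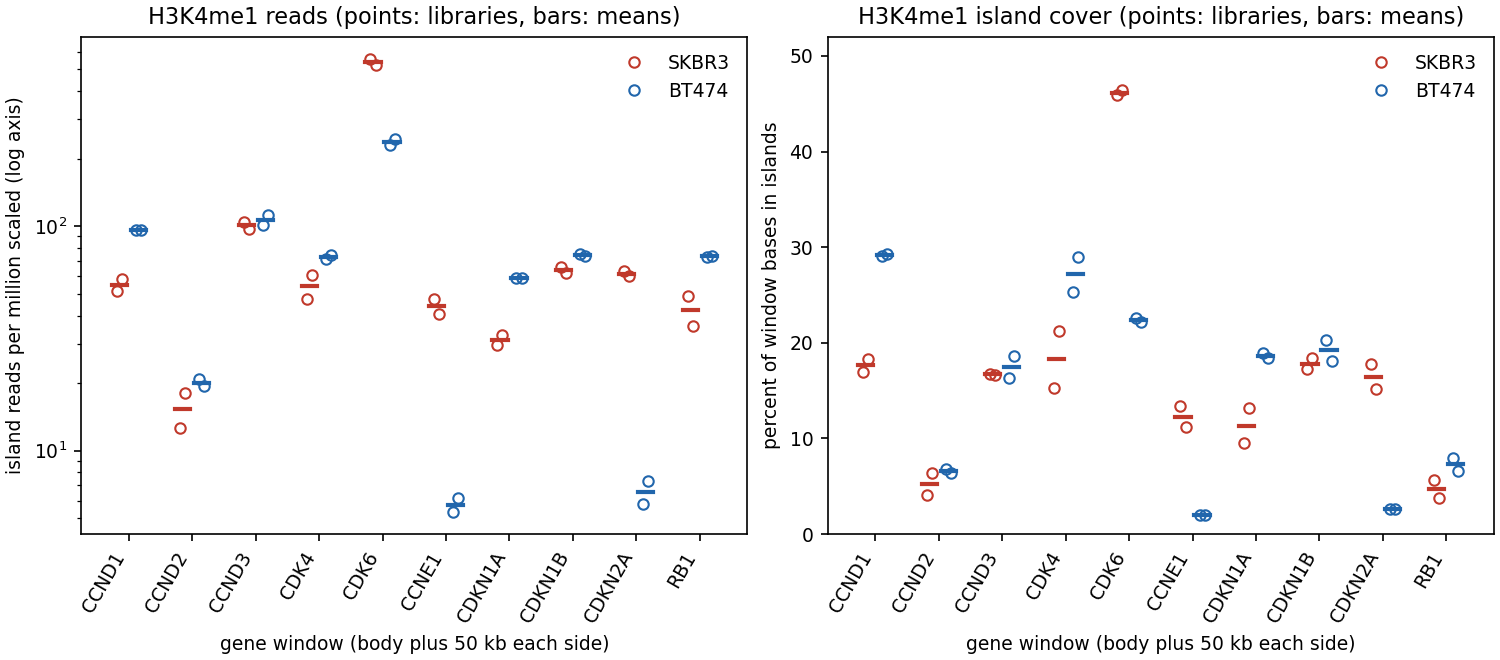
Scaled H3K4me1 island reads (left, log axis, reads per 1000000) and percent of window bases in islands (right) for each of the 10 gene windows, with SKBR3 in red and BT474 in blue. Open points are the 2 libraries of a line and bars their mean. CDK6 has means of 537.8 scaled reads in SKBR3 and 237.5 in BT474, and CCNE1 and CDKN2A lie at 5.76 and 6.53 in BT474 against 43.9 and 61.4 in SKBR3.

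CCND1 (cyclin D1, ENSG00000110092, chr11:69455924-69469242, plus strand) carried more H3K4me1 in BT474. Scaled reads were 51.4 and 58.1 in the SKBR3 libraries and 96.4 and 96.3 in the BT474 libraries, and the lines did not overlap. The log2 ratio of SKBR3 to BT474 was -0.82 ± 0.09 (SE of the edgeR fit, 2 libraries a line), with an adjusted p of 0.00144. Islands covered 16.9% and 18.4% of the window in SKBR3 and 29.1% and 29.3% in BT474, while the density was similar, 2.68 and 2.79 scaled reads per kb of island in SKBR3 and 2.92 and 2.90 in BT474. Within the gene body the cover was 43.9% and 36.4% in SKBR3 and 75.4% and 81.4% in BT474. The longest stretch that was island in both libraries of BT474 and in neither of SKBR3 was 3.8 kb inside the gene (chr11:69458401-69462200), and its midpoint lay 4.38 kb from the start site. LTO1 was the other coding gene whose start lay closest to that stretch, 28.0 kb away. The start site itself was outside islands in all 4 libraries, the nearest island being 2.12 to 2.32 kb away.

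CCND2 (cyclin D2, ENSG00000118971, chr12:4378937-4414519, plus strand) had the lowest island cover of the 3 D cyclins. Scaled reads were 12.6 and 18.1 in SKBR3 and 20.8 and 19.4 in BT474. Its log2 ratio was -0.39 ± 0.28 (SE), with an adjusted p of 0.255 in edgeR, and it passed only when SKBR3 replicate 2 was left out (-0.68, adjusted p 0.0401). Cover was 4.13% and 6.34% of the window in SKBR3 and 6.79% and 6.34% in BT474, and the lines overlapped. Where the islands lay differed all the same. No base of the gene body was in an island of SKBR3, and islands covered 10.1% of it in each BT474 library. The single stretch found in both libraries of BT474 alone, 2.6 kb long (chr12:4381401-4384000), held the start of the canonical transcript. It also held the start of another coding gene, ENSG00000285901. The longest stretch shared by both lines, 1.8 kb long (chr12:4416801-4418600), lay past the 3′ end of CCND2 at the start of another gene, TIGAR.

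CCND3 (cyclin D3, ENSG00000112576, chr6:41902672-42018095, minus strand) had similar H3K4me1 in both lines. Scaled reads were 104.9 and 97.2 in SKBR3 and 100.8 and 111.8 in BT474, and the ranges overlapped. The log2 ratio was -0.07 ± 0.09 (SE), with an adjusted p of 0.485 in edgeR. Its sign depended on the window, being 0.21 with 10 kb on each side (adjusted p 0.0976) and -0.43 with 100 kb (adjusted p 0.00224), and whole islands placed by their midpoint gave -0.26 (adjusted p 0.0239). Cover was 13.1% and 13.6% of the gene body in SKBR3 and 9.82% and 11.2% in BT474. Downstream of the gene it was 8.94% and 5.74% in SKBR3 and 15.7% and 18.1% in BT474. The window holds the starts of 5 other coding genes, among them TAF8, which lies 0.75 kb from the longest stretch found in BT474 alone (chr6:42019001-42021600).

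CDK4 (the kinase partner of the D cyclins, ENSG00000135446, chr12:58141510-58149796, minus strand) was called higher in BT474 by a narrow margin. Scaled reads were 47.5 and 60.8 in SKBR3 and 71.3 and 74.5 in BT474, and the lines did not overlap. Its log2 ratio was -0.43 ± 0.14 (SE), with an adjusted p of 0.0476 in edgeR. The call was lost without BT474 replicate 1 (adjusted p 0.138), without BT474 replicate 2 (0.178), without the filter on low counts (0.0501), with 10 kb in place of 50 kb (0.063) and with whole islands placed by their midpoint (0.057). Cover was 15.3% and 21.2% in SKBR3 and 25.3% and 29.0% in BT474. The window is dense in genes, with 8 other coding starts, and the longest stretch found in BT474 alone (2.2 kb, chr12:58129801-58132000) held no start of CDK4 but that of the neighbouring gene TSPAN31, and its midpoint lay 18.9 kb from the CDK4 start site.

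CDK6 (the other kinase partner of the D cyclins, ENSG00000105810, chr7:92234235-92465887, minus strand) had the most H3K4me1 per length in SKBR3, where islands took nearly the same share of the window in both libraries. Scaled reads were 553.8 and 521.8 in SKBR3 and 231 and 244 in BT474, so that the lines stood apart by far more than their libraries. The log2 ratio was 1.18 ± 0.06 (SE), with an adjusted p of 2.0e-04 in edgeR. Cover was 45.9% and 46.4% of the window in SKBR3 and 22.6% and 22.2% in BT474, with densities of 3.64 and 3.39 against 3.08 and 3.32 scaled reads per kb of island. Most of the window is gene body, whose cover was 60.2% ± 0.56 in SKBR3 and 26.9% ± 0.10 in BT474 (mean ± SD of 2 libraries), whereas the 50 kb downstream had 22.8% ± 2.8 and 23.03% ± 0.23. The 50 kb upstream had little island, 6.4% and 2.4% in SKBR3 and 1.83% and 0% in BT474. Islands of all 4 libraries shared 53.8 kb, those of SKBR3 alone took 69.8 kb in 30 stretches, and those of BT474 alone took 5.0 kb in 4 stretches. The longest SKBR3 stretch was 12.0 kb long (chr7:92446001-92458000) in the part of the gene nearest its start. In the 1 Mb beyond each edge of the window, the log2 ratio of scaled reads was 0.15.

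CCNE1 (cyclin E1, ENSG00000105173, chr19:30302898-30315219, plus strand) had a single island in each BT474 library and 6 and 5 in the SKBR3 libraries. Scaled reads were 47.3 and 40.5 in SKBR3 and 5.36 and 6.15 in BT474. Its log2 ratio was 2.93 ± 0.21 (SE), with an adjusted p of 4.28e-04 in edgeR. Cover was 13.4% and 11.2% of the window in SKBR3 and 1.96% in both BT474 libraries, with densities of 3.15 and 3.22 against 2.44 and 2.80 scaled reads per kb of island. The BT474 island (chr19:30331601-30333800, 2.2 kb) lay 29.8 kb downstream of the start site and was an island in SKBR3 too. SKBR3 alone had 9.8 kb in 5 stretches, the longest downstream of the gene (2.8 kb, chr19:30324801-30327600) and the next upstream (2.4 kb, chr19:30296201-30298600). No other coding gene starts in this window. The flanks, 1 Mb on each side, were also higher in SKBR3 (424.4 and 394.8 scaled reads against 205.1 and 227.1, a log2 ratio of 0.92), and copy number was not measured here.

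CDKN1A (p21, ENSG00000124762, chr6:36644237-36655114, plus strand) carried more H3K4me1 in BT474. Scaled reads were 29.6 and 32.9 in SKBR3 and 58.9 in both BT474 libraries. The log2 ratio was -0.92 ± 0.11 (SE), with an adjusted p of 0.00166 in edgeR. Cover was 9.53% and 13.1% of the window in SKBR3 and 18.9% and 18.4% in BT474, and in the gene body 33.1% and 22.1% against 71.7% and 69.5%. The longest stretch found in BT474 alone, 3.0 kb (chr6:36645401-36648400), spanned the start of the canonical transcript. RAB44 was the other coding gene with a start in the window, 17.2 kb from that stretch.

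CDKN1B (p27, ENSG00000111276, chr12:12838432-12875303, plus strand) had opposite differences in cover along the window. Scaled reads were 65.8 and 61.9 in SKBR3 and 75.1 and 73.7 in BT474. Its log2 ratio was -0.22 ± 0.08 (SE), with an adjusted p of 0.0546 in edgeR. It passed without SKBR3 replicate 1 (adjusted p 0.0410), with DESeq2 (0.0283), without TMM scaling (0.0111) and with every gene of the annotation (0.0250). With 10 kb on each side the ratio was -0.87 (adjusted p 0.00285) and with 100 kb it was -0.41 (0.00512). In the 50 kb upstream, cover was 18.4% and 21.6% in SKBR3 and 3.6% and 3.2% in BT474. In the gene body it was 19.3% and 28.5% in SKBR3 and 36.6% and 35.0% in BT474, and in the 50 kb downstream 14.6% and 7.79% against 25.0% and 20.6%. The SKBR3 excess upstream centred on a stretch of 6.0 kb (chr12:12816801-12822800), and GPR19 was the other coding gene whose start lay closest to it, 26.3 kb away.

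CDKN2A (the p16 and p14ARF gene, ENSG00000147889, chr9:21967751-21995300, minus strand) had the largest log2 ratio of the 10. Scaled reads were 63.1 and 59.8 in SKBR3 and 5.76 and 7.30 in BT474. The log2 ratio was 3.24 ± 0.18 (SE), with an adjusted p of 2.49e-04 in edgeR. Cover was 17.8% and 15.1% of the window in SKBR3 and 2.67% in both BT474 libraries, with densities of 2.78 and 3.10 against 1.70 and 2.15 scaled reads per kb of island. Each BT474 library had 1 island in the window, upstream of the gene, 3.2 kb of which (chr9:22039401-22042600) was island in all 4 libraries. In SKBR3 too the cover lay mainly upstream, with 33.4% and 35.8% of the 50 kb upstream and 15.25% and 0% of the gene body. In BT474 these were 6.8% in both libraries and 0% in both. The longest stretch found in SKBR3 alone (4.0 kb, chr9:22035201-22039200) was upstream, 25.9 kb from the start of CDKN2B. The low level in BT474 was not limited to the gene. In the flanks, 1 Mb on each side, scaled reads were 393.8 and 332.5 in SKBR3 and 18.1 and 24.2 in BT474, a log2 ratio of 4.10 beside 3.24 in the window. Over the window and both flanks together BT474 had 6 and 7 islands (0.630% and 0.808% of the bases) and SKBR3 41 and 36 (7.70% and 6.70%). The longest run without an island there was 886.2 kb and 942.4 kb in the BT474 libraries and 534.7 kb and 593.7 kb in the SKBR3 libraries. This run took in the CDKN2A gene in BT474 replicate 2 alone. In BT474 replicate 1 and in both SKBR3 libraries it lay outside the gene and ended at the edge of the region examined. The number of copies of the region in either line was not measured here, and its part in these values was not tested. The window of CDKN2B, the p15 inhibitor gene next to it, overlaps that of CDKN2A and gave a log2 ratio of 3.24 ± 0.20 (SE), adjusted p 3.14e-04.

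RB1 (the retinoblastoma protein, ENSG00000139687, chr13:48877880-49173572, plus strand) had low cover, and its annotated length of 295.7 kb was the longest of the 10. That length holds the starts of 2 other coding genes, LPAR6 and RCBTB2, so the values are not those of RB1 alone. In SKBR3, only the islands at chr13:48971601-48976800 (replicate 1) and chr13:48972001-48977000 (replicate 2) lay before the start of RCBTB2. Scaled reads were 48.7 and 35.9 in SKBR3 and 72.9 and 73.8 in BT474, and the lines did not overlap. Its log2 ratio was -0.79 ± 0.17 (SE), with an adjusted p of 0.0116 in edgeR. The call was lost without BT474 replicate 1 (adjusted p 0.0614) and without BT474 replicate 2 (0.0572), where 1 BT474 library was left. Cover was 5.61% and 3.79% in SKBR3 and 7.97% and 6.65% in BT474. The 50 kb upstream held no island in SKBR3 and had 13.8% and 8.64% cover in BT474. The 50 kb downstream of the annotated end held none in any library.

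**Figure D2:**
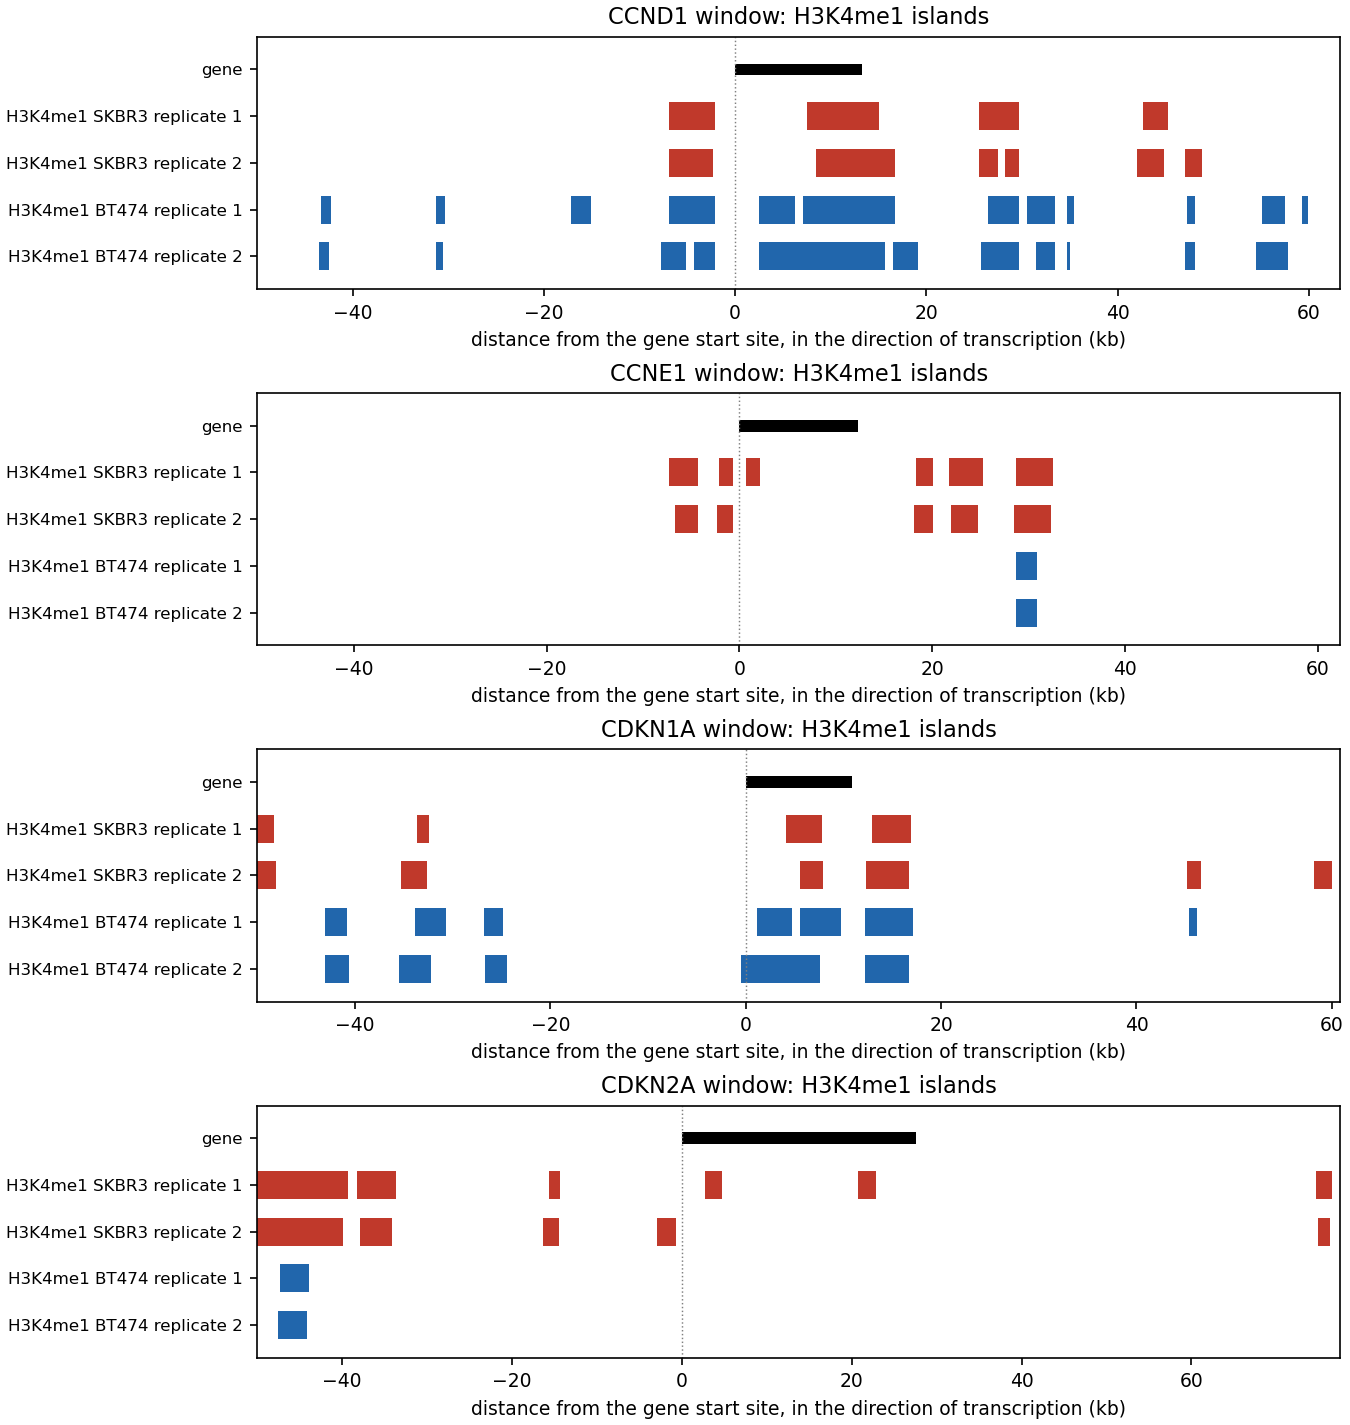
H3K4me1 islands (bars) of the 2 SKBR3 libraries (red) and the 2 BT474 libraries (blue) in the windows of CCND1, CCNE1, CDKN1A and CDKN2A, by distance from the gene start in the direction of transcription (kb), with the gene in black. In the CCNE1 and CDKN2A windows each BT474 library has 1 island, and in the CCND1 and CDKN1A windows BT474 islands cover more of the gene than SKBR3 islands do.

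In counts of cover alone, both SKBR3 libraries lay above both BT474 libraries at 3 of the 10 windows (36.7% of all coding windows), both BT474 libraries lay above at 4 (41.9%), and the libraries overlapped at CCND2, CCND3 and CDKN1B. With 2 libraries a line an exact permutation test cannot go below p = 0.333 (two-sided), so no test was made of single cover values. Replicates of a line shared more of their islands than libraries of different lines did at 9 of the 10 windows, as the overlap of bases divided by their union shows. At CDK6 it was 0.793 between the SKBR3 libraries, 0.778 between the BT474 libraries and 0.374 to 0.395 across lines. At CCND2 the SKBR3 libraries shared 0.34 and the comparisons across lines ranged from 0.254 to 0.435.

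**Figure D3:**
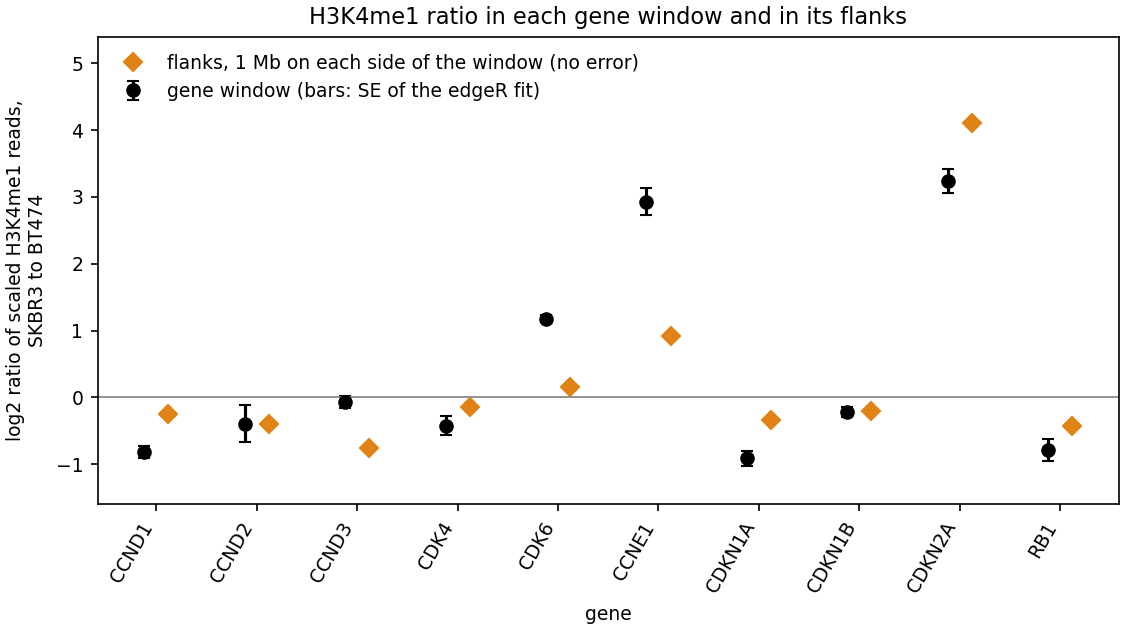
Log2 ratio of scaled H3K4me1 reads, SKBR3 to BT474, in each gene window (black circles, bars are the SE of the edgeR fit) and in the 1 Mb on each side of it (orange diamonds, no error). CDKN2A has 3.24 in its window and 4.10 in its flanks, and CDK6 has 1.18 and 0.15.

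Outside the windows the ratios were nearer to 0 for 7 of the 10 genes, the exceptions being CDKN2A, CCND3 and CCND2 (-0.40 in the flanks and -0.39 in the window). For the 4 genes called higher in BT474, the flanks had log2 ratios of -0.33 (CDKN1A), -0.25 (CCND1), -0.43 (RB1) and -0.15 (CDK4), each nearer to 0 than the window. CCND3 had -0.75 in its flanks beside -0.07 in the window. Over all windows the median log2 ratio of the flanks was 0.06, and over the 10 genes it was -0.23.

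Within 1 kb of the 5′ end of the gene, both SKBR3 libraries had an island at CCNE1 alone (1 of 10, beside 34.2% of all coding genes), and both BT474 libraries had one at CCND3, CDK4, CDK6 and RB1 (4 of 10, beside 48.2%). The counts depended on single choices, being 3 and 4 without SKBR3 replicate 1, 1 and 2 with islands of at least 50 reads, and 6 and 7 within 5 kb, and the difference between the lines was not tested. The annotated 5′ end lies far from the start of the canonical transcript at several of these genes, 108.5 kb at CCND3, 31.9 kb at CDKN1B and 20.4 kb at CDKN2A, so the count was repeated at the canonical start, an alternative chosen after the data were seen. There, both SKBR3 libraries had an island at CCND3, CCNE1, CDK4 and CDKN1B (4 of 10, beside 35.4%), and both BT474 libraries at CCND2, CCND3, CDK4, CDK6, CDKN1A, CDKN1B and RB1 (7 of 10, beside 50.7%). The canonical starts of CCND2 and CDKN1A were the clearest difference: 100% of the 2 kb around each lay in islands of both BT474 libraries and 0% in both SKBR3 libraries, whose nearest islands were 33.9 and 33.7 kb away at CCND2 and 1.91 and 3.31 kb away at CDKN1A. CCNE1 showed the reverse, with 30.0% and 15.1% in SKBR3 and the nearest BT474 island 28.7 kb away. CDKN2A had an island near its 5′ end in SKBR3 replicate 2 and near its canonical start in SKBR3 replicate 1, and none within 43.9 kb of either in BT474.

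The 250 bases before the canonical start of CDKN1A and CCNE1 are shown because islands within 1 kb of these starts were line-specific, in opposite lines. The CDKN1A bases lay in islands of both BT474 libraries. The CCNE1 bases lay in no island, the nearest SKBR3 island being 0.698 kb from the start in both libraries. They come from the GRCh37 genome, 5′ to 3′ on the strand of the gene, at chr6:36646241-36646490 (CDKN1A) and chr19:30302648-30302897 (CCNE1). Capitals mark CG pairs.
CDKN1A: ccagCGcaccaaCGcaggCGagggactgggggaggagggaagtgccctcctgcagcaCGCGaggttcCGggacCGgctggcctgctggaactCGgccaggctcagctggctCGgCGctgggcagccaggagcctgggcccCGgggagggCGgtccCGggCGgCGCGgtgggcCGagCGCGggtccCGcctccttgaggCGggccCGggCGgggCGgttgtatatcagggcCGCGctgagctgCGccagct
CCNE1: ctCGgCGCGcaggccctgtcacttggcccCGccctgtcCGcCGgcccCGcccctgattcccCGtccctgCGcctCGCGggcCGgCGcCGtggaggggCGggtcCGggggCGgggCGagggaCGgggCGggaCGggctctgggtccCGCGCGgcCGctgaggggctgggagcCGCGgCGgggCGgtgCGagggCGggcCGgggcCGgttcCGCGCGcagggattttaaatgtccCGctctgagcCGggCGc
CDKN1A had 27 CG pairs in these 250 bases and CCNE1 had 39, and the median over 20094 coding genes was 18. As many or more were found before 25.0% and 3.75% of those genes. The sequence is the reference and not that of either line, and the counts describe these bases only.

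Of other genes of the same step, 22 were examined from a list made by function, and all had a window that was tested. In the same edgeR fit 10 were higher in SKBR3, 8 were higher in BT474 and 4 did not pass, with a median log2 ratio of 0.26, beside 34.2% and 38.2% of all windows. RBL1, a relative of RB1 that binds E2F factors, had no island in BT474 and 132 and 133 scaled reads in SKBR3. CCNE2 (cyclin E2) had no island in SKBR3 and 171.7 and 168.3 scaled reads in BT474, the opposite of CCNE1. E2F5, an E2F factor bound by the pocket proteins, had 7.34 and 0 scaled reads in SKBR3 and 64.0 and 64.1 in BT474. No fold is given for these 3, since libraries without a listed island give no base for it. With CDKN2B, described above, they were the 2 genes with the highest and the 2 with the lowest ratio of the list. The methods of the study also describe removing reads in regions of high input signal in each cell line. The part of this filter in windows without islands was not tested.

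The 10 windows together held 1, 2, 6 and 17 HER2 peaks in SKBR3 after vehicle, SKBR3 after EGF, BT474 after vehicle and BT474 after EGF. These are 0.559, 1.12, 3.36 and 9.51 peaks per Mb, beside 0.855, 0.83, 2.82 and 9.66 per Mb of the genome in the same lists. Of the 10 windows 1, 2, 3 and 7 held a peak, and of all coding windows 12.2%, 13.0%, 35.4% and 72.6% did. Each condition is 1 list with no replicate, so no difference between vehicle and EGF was tested. The lists differ in length by more than 10 times, and when each was limited to its 2520 highest-scoring peaks the windows held 1 peak after vehicle and 1 after EGF in BT474.

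**Figure D4:**
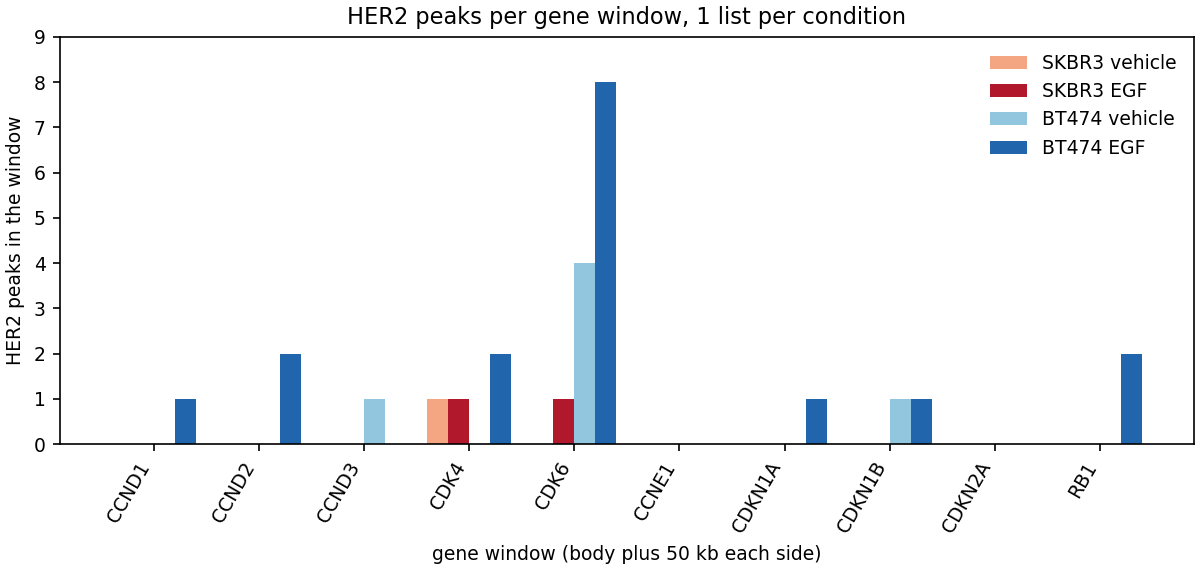
Number of HER2 peaks with their midpoint in each gene window, for SKBR3 vehicle, SKBR3 EGF, BT474 vehicle and BT474 EGF (1 list each, bars from 0). CDK6 has 0, 1, 4 and 8 peaks, CDK4 has 1, 1, 0 and 2, and CCNE1 and CDKN2A have none in any list.

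The peaks fell on 19 places, counting peaks that overlap by at least 1 bp as 1. Of these, 13 were in 1 list, 5 in 2 lists, 1 in 3 lists and 0 in all 4. BT474 after EGF alone accounted for 11. Of the 6 places found in BT474 after vehicle, 5 were found after EGF as well, the exception being an intron of CCND3 (chr6:42006285-42006491, rank 7308 of 8559 by score). CCNE1 and CDKN2A had no peak in any list. CCND1 had 1, 11.2 kb upstream of its start (chr11:69444560-69444803), and CDKN1A had 1, 13.0 kb upstream (chr6:36631111-36631345), each in BT474 after EGF only. CCND2 had 2, also in BT474 after EGF only. One lay 8.18 kb upstream, in the non-coding gene CCND2-AS1. The other lay downstream of the gene, 48.3 kb from its start, in the coding genes TIGAR and ENSG00000285901. In the same list RB1 had 2 peaks in introns of its annotated length, 54.6 and 265 kb from its start. The first lay 86.4 kb from the start of LPAR6. The second (chr13:49142770-49143041) lay past the start of RCBTB2, 35.5 kb from it.

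CDK6 held 8 of the 17 peaks of BT474 after EGF and 4 of the 6 after vehicle, all in introns. That is 24.1 peaks per Mb after EGF, the most of the 10 windows, and CDK6 was compared with other long windows with this value known. Of 1498 coding windows of 300 kb or longer, a limit set after the values were seen, 43 (2.87%) had at least as many per Mb. The median of all 1498 was 9.89, and RB1, the other of the 10 genes with a window of that length, had 5.05. The place found in 3 lists (chr7:92301152-92301424, 164.6 kb from the start site) ranked 1152 of 2520 in SKBR3 after EGF, 5056 of 8559 in BT474 after vehicle and 2759 of 29326 in BT474 after EGF. The highest-ranked was chr7:92394318-92394621, 71.4 kb from the start site, at 850 of 8559 after vehicle and 720 of 29326 after EGF in BT474. It lay in islands of all 4 H3K4me1 libraries, within the longest stretch shared by both lines (8.4 kb, chr7:92391201-92399600). FAM133B was the other coding gene with a start in this window, 174.8 kb away.

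**Figure D5:**
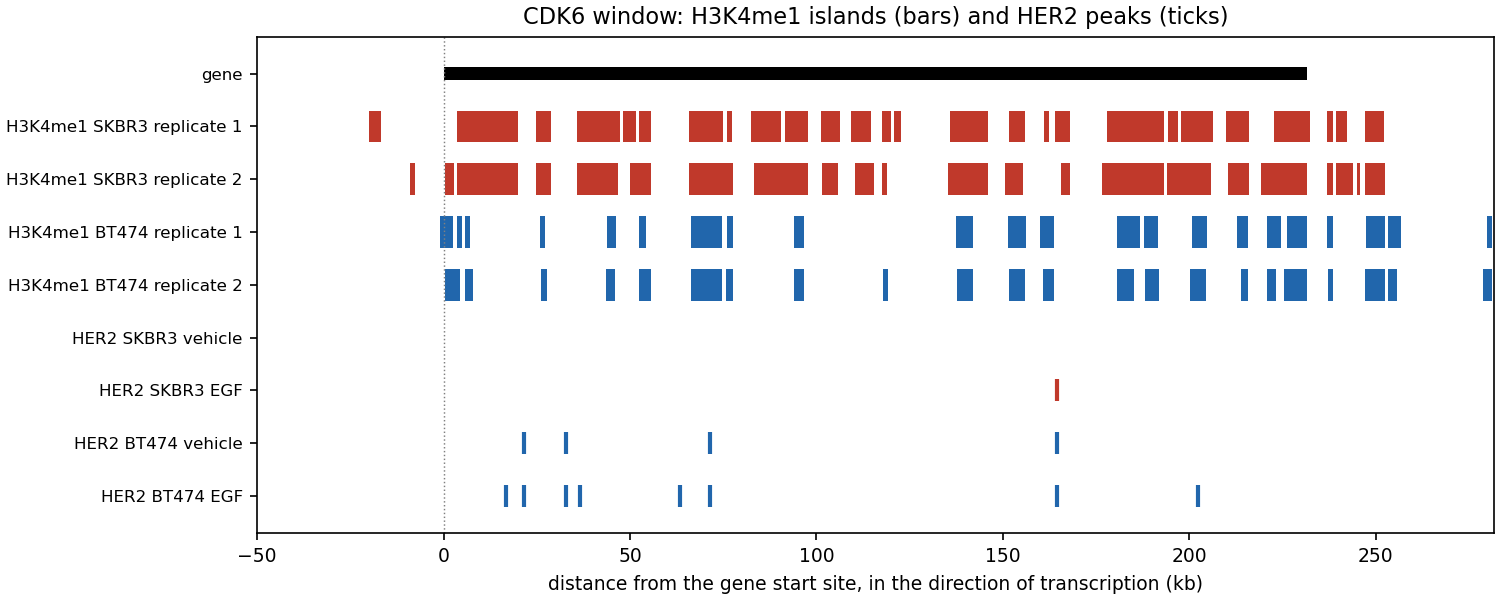
The CDK6 window by distance from the gene start in the direction of transcription (kb): the gene in black, H3K4me1 islands of each library as bars and HER2 peaks of each list as ticks at their midpoint, with SKBR3 in red and BT474 in blue. SKBR3 islands cover 60.2% of the gene and BT474 islands 26.9%, while 8 of the HER2 peaks are in BT474 after EGF and 1 is in SKBR3 after EGF.

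CDK4 had 3 places, the nearest 20.5 kb from its start site. One, in AGAP2 (chr12:58122140-58122394), was listed in SKBR3 after vehicle and not after EGF, and in BT474 after EGF and not after vehicle. The others were a peak of SKBR3 after EGF upstream of the start, in EEF1AKMT3 and a gene that overlaps it, and a peak of BT474 after EGF 37.7 kb downstream, in OS9. CDKN1B had 1 place, in an untranslated region of the gene (chr12:12871759-12872089), in both BT474 lists. This place lay 33.5 kb from the annotated 5′ end but close to the canonical start, which is itself 31.9 kb from that end.

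The HER2 peaks were also placed against H3K4me1. With an island of either library of the same line, the overlap was 1 of 1, 1 of 2, 1 of 6 and 4 of 17 peaks in the order of the lists above, and with islands of both libraries it was 0, 0, 1 and 3. Of all peaks of the lists 18.8%, 17.4%, 15.4% and 14.0% lay in an island of either library. At CDK6, 2 peaks of BT474 after EGF (chr7:92429275-92429506 and chr7:92449151-92449352) lay in islands of both SKBR3 libraries and of no BT474 library, and the second lay within the 12.0 kb stretch found in SKBR3 alone.

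The 5 places outside untranslated regions that were found in 2 lists or more are shown as the 101 bases around the midpoint of the BT474 EGF peak, on the plus strand of GRCh37. Capitals mark 6-letter matches described after them.
CDK4 site, chr12:58122217-58122317: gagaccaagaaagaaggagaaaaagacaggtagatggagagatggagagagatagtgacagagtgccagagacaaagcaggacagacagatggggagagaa
CDK6 site 165 kb from the start, chr7:92301238-92301338: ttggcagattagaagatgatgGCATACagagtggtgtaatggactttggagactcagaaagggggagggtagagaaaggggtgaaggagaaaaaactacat
CDK6 site 71.4 kb from the start, chr7:92394422-92394522: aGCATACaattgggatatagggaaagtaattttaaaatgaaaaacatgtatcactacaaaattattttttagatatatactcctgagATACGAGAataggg
CDK6 site 32.9 kb from the start, chr7:92432973-92433073: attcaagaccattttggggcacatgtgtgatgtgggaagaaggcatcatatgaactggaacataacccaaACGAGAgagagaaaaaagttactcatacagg
CDK6 site 21.5 kb from the start, chr7:92444352-92444452: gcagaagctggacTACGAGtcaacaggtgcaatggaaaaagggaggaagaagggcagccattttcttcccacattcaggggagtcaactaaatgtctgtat
The motif that the study names, CGTNTGC, was searched on both strands. No peak of the 10 windows had it within 50 bp of the midpoint, where it was found at 3.47%, 12.0%, 12.0% and 7.48% of all peaks of the lists, and anywhere in the peak it was found at the CDKN1B peak of both BT474 lists. The capitals are 6 overlapping words of 6 letters, searched on both strands and chosen after the sequences were seen. They are the word GCATAC, then CATACG that lies 1 letter further on, then ATACGA in the same way, followed by the word TACGAG, by the word ACGAGA and, as the last of them, by CGAGAT. Joined, they spell the end of the P7 adapter of Illumina libraries, which was ligated in this ChIP-exo protocol, and the first 7 letters of the joined word are a match to CGTNTGC on the other strand. At least 1 of the words lay in the 101 bases of 0 of 1, 2 of 2, 3 of 6 and 5 of 17 peaks of the windows. Among all peaks of the lists the shares were 16.5%, 40.3%, 44.4% and 37.6%, and in 101 bases taken 1 kb from each peak they were 5.70%, 5.71%, 5.78% and 5.39%. The part of adapter sequence in these peaks was not tested. Of the 5 peaks of BT474 after EGF with such a word, 4 were the CDK6 places printed above, and the fifth was the RB1 peak 54.6 kb from the start (chr13:48932308-48932544).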

How the data were processed

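H3K4me1 ChIP-seq (2 libraries of SKBR3 and 2 of BT474) and HER2 ChIP-exo (1 list per line and treatment) were analysed, and the 2 input samples and T47D cells were not analysed here. The authors deposited, per H3K4me1 library, SICER 1.1 islands with the count of reads in each, and, per HER2 condition, MACS peaks with a score whose scale is not given in the sources used here and which was compared within a list only. The methods name bowtie2 and MACS2 on hg19 with input controls, whereas the submitters' processing notes name BWA 0.5.9, MACS 1.4.1, SICER 1.1 and GRCh37. The methods also describe removal of reads in blacklisted regions and in regions of high signal in the input of each cell line. A region removed for a single line would have no island in that line, and the part of this filter was not tested. HER2 was precipitated with more than 1 lot of the same antibody.

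The 10 genes and the lists of other genes were chosen with earlier results of these data known. Gene positions came from GENCODE release 44 mapped to GRCh37. Island reads were summed over each coding gene with 50 kb on each side, islands cut by an edge being shared out by bases and the sum rounded. Windows were tested with edgeR 4.0.16 (R 4.3.3; filterByExpr, TMM, quasi-likelihood test, Benjamini-Hochberg adjustment over 18844 windows). On simulated counts of 20098 windows this fit recovered 57% of 100 windows changed 2-fold and 99% of 100 changed 4-fold, with 14 false calls. The simulation gave all windows the same dispersion and left all but these windows unchanged. In the data 34.2% and 38.2% of windows were called higher in SKBR3 and BT474, so it does not measure the false calls here. Totals per library, which set the precision, were 15097245 to 18714089 island reads, and reads outside islands are not counted. Cover, start sites and HER2 peaks were described without a test. A marker gene and a sequence that were examined are not reported here. All 10 genes were named. From the list of other genes, the 2 highest and the 2 lowest ratios past the test were named. Neighbouring genes were named where they lay over a described peak or started nearest to it or to the longest line-only stretch, though not for every peak and stretch. Alternatives were other scalings and tools (DESeq2 1.42.0), filters, windows, island and peak thresholds, a replicate block and leaving out each library. No shared deviation of same-numbered libraries was seen, with a correlation of -0.011 over 18480 windows. Whether such libraries were prepared together cannot be told from this value.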

Additional observations from a re-analysis of the deposited data

Results flagged for a closer look

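The place in AGAP2 in the CDK4 window (chr12:58122140-58122394) was listed under opposite treatments in the lines. In SKBR3 it was called after vehicle, with a score of 29.5 (rank 1782 of 2596), and not after EGF. In BT474 it was called after EGF, with a score of 69.5 (rank 11120 of 29326), and not after vehicle. Each condition is 1 list, scores are not comparable between lists, and the difference was not tested.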

How the results depend on the processing

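The log2 ratios of CCND1, CCNE1, CDK6, CDKN1A and CDKN2A kept their direction and stayed past the threshold in every alternative for which a ratio is given. With 10 kb on each side no ratio is given for CCNE1 and CDKN2A, since BT474 had no island there. The fit still called 3 of the 10 genes higher in SKBR3 in that setting. CCND3 reversed with 10 kb (0.21, adjusted p 0.0976). Without BT474 replicate 1 or 2 the genes called higher in BT474 numbered 2, and over the 4 fits that each leave out a library 2 to 5. The other genes of the step called higher in BT474 numbered 5 without either BT474 library, and 5 to 8 over these fits. With every gene of the annotation 17892 and 22493 windows were called higher in SKBR3 and BT474. With the replicate block, under which 5703 windows were higher in SKBR3 and 6227 in BT474, no call among the 10 genes changed.

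Genes with an island at the start numbered 6 in SKBR3 and 7 in BT474 within 5 kb, 6 and 8 at any transcript start, 4 and 7 at the canonical start, and 2 in BT474 with islands of at least 50 reads. Without single libraries they numbered 1 to 3 in SKBR3. HER2 peaks in SKBR3 after vehicle fell to 0 with 10 kb, with the gene body alone and with the upper part of the list by score (the better-scoring 50%). In SKBR3 after EGF each of these left 1. The upper part left 3 in BT474 after vehicle and 7 after EGF, equal numbers left 1 and 1, and the gene body alone left 11 after EGF. In islands of both libraries lay 0 peaks of each SKBR3 list, and 0 of the SKBR3 vehicle list had 50% of its length in an island. The core motif anywhere in the peak was found at 1 peak in each BT474 list.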
